A study of Mus musculus with 2 samples.

Results

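The 8 genes described here encode receptors and regulators of mitophagy: Bnip3, Bnip3l, Fundc1, Fkbp8, Bcl2l13, Phb2, Pink1 and Optn. They were taken by gene symbol from a table of 54680 loci, and all 8 were found, each on 1 protein-coding locus. RNA was sequenced from CT26 cells, a mouse colon cancer line, in 2 groups of 1 library each. The shSetdb1 group had been infected with lentivirus for a hairpin RNA that targets Setdb1, the gene of a histone H3 lysine 9 methyltransferase. The shCtrl group was infected with the same kind of virus carrying the empty knockdown vector, and its genotype is given as wild type. Both groups were CT26 cells grown for 6 days in RPMI medium with serum, and the knockdown cells are called differentiated in the labels. No separate cultures or hairpins are named within a group. With 1 library in each group no difference has a replicate check, no p-value is given, and the values describe these 2 libraries.

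Mitophagy is the removal of mitochondria by autophagy. In the receptor route, proteins in the mitochondrial membrane bind ATG8 proteins (the LC3 and GABARAP families) on the growing autophagosome directly. In the ubiquitin route, the kinase PINK1 gathers on damaged mitochondria, ubiquitin is added to outer membrane proteins, and adaptors such as optineurin link the ubiquitin to ATG8 proteins. BNIP3 and its relative BNIP3L (NIX) are known as receptors whose genes are induced in low oxygen, through hypoxia-inducible factor (HIF).

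The library totals, recovered from the FPKM values (fragments scaled by gene length and depth), were 18421604 reads for shCtrl and 19045830 reads for shSetdb1. Setdb1 itself had 1340 reads in shCtrl and 317 in shSetdb1, a read ratio of 0.229 with a 95% counting interval of 0.202 to 0.259. Epithelial and intestinal markers were sparse for a colon line: Epcam and Cdh1 had 0 reads in both libraries, as did Cdx1 and Lgr5, while Krt18 went from 37.7 to 90.0 FPKM. Krt19 had 1 read in shCtrl and 53 in shSetdb1, Cdx2 had 5 and 18, and Krt8 had 7 and 8. The 5 epithelial markers summed to 38.0 and 91.8 FPKM. Their part in the differences below was not tested. Of the 5 intestinal markers, 0 reached 1 FPKM. The 4 mesenchymal markers (Vim, Cdh2, Fn1, Col1a1) were all above 1 FPKM. The 5 leukocyte markers summed to 1.13 FPKM in shCtrl and 0.974 FPKM in shSetdb1, and the 3 endothelial markers had 0 reads. Erythroid markers summed to 0.387 and 1.12 FPKM.

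Of the 8 genes, 1 differed strongly. Bnip3 was at 12.6 times its shCtrl FPKM in the shSetdb1 library, while Bnip3l, Fundc1, Fkbp8, Bcl2l13 and Pink1 were between 27.5% and 49.8% higher, Phb2 was lower, and Optn had no reads. On the scale used below, the log2 ratio of (FPKM + 1), shSetdb1 over shCtrl, 1 gene passed 2-fold upward and 0 passed it downward. Among all 10671 genes that reached 1 FPKM in either library, 6.81% passed it upward and 4.85% downward. With Optn under 1 FPKM, the other 7 all reached that level in both libraries. Of these 7, 6 had a log2 ratio above 0 and 1 below it, beside 49.6% and 50% of all genes tested. Their median was 0.34, against -0.0004 for all genes tested. In bulk RNA, fewer cells with a transcript and less of it per cell cannot be told apart.

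Because Bnip3 was the gene that stood out, the DNA upstream of its start is shown, with ACGTG on either strand in capitals. ACGTG and GCGTG are the 2 forms of the core of the HIF binding motif, and matches to GCGTG are left in lower case. RefSeq promoters on GRCm38.p6 were found for 7 of the 8 genes, all except Bnip3l. The stretch on the minus strand at chr7:138909520-138909756 ends where the annotated transcripts begin.
Bnip3: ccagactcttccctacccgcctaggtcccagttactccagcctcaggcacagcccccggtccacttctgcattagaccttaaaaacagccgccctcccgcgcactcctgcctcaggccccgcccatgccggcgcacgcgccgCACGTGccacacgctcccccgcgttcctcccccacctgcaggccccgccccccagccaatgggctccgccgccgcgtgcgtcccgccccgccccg

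The capitals in Bnip3 are a palindrome, CACGTG, in which ACGTG reads on both strands, at 108 bases before the RefSeq start. The same letters are also the E-box core bound by other factors. In the 250 bases before the start, ACGTG was found in 3 of the 7 promoters, those of Bnip3, Fkbp8 and Phb2, and in 16.6% of all 32851 promoters in the table. Among promoters of the genes tested the share was 22.5%. CACGTG was in 6.02% of all promoters and in 8.67% of those of genes tested. It was in 3.57% of 28 promoters of the HIF target genes described below. GCGTG, on either strand, was more common: it was in 5 of the 7 promoters, with 3 matches in Bnip3, in 28.2% of all promoters and in 46.6% of those of genes tested. The 30 bases around each match are shown to compare the 3 genes.
Bnip3, chr7:138909597-138909626, minus strand: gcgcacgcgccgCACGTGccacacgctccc
Fkbp8, chr8:70527665-70527694, plus strand: gggcgcgagacggACGTGtgcacaagccaa
Phb2, chr6:124712078-124712107, plus strand: taagttagaacttCACGTccgtcctcacgg
Of these 3, Bnip3 and Fkbp8 were higher in the shSetdb1 library and Phb2 was lower. For Phb2 and Optn, bases soon after the RefSeq start were not found in the annotated transcripts, so those starts were not matched. The Fkbp8 window lies inside the gene Kxd1, which is on the other strand. The Bnip3 promoter was rich in G and C, at 72.4% against a median of 60.4% for promoters of genes tested. It held 24 CG pairs against a median of 16. The motif is a match of letters, and binding was not measured.

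The 5 outer membrane receptors come first. Bnip3 (ENSMUSG00000078566) is a minus-strand gene (GRCm38 chromosome 7, 138890836 to 138909519). Its level was 5.87 FPKM (249 reads) in shCtrl and 74.0 FPKM (3141 reads) in shSetdb1. The counting intervals of the levels, 5.16 to 6.65 and 71.5 to 76.7 FPKM, were far apart. The log2 ratio was 3.45, and the ratio of reads relative to each library's total was 12.2 (10.7 to 13.9). This was the 16th highest ratio among the 10671 genes, and 0.141% of them were higher. Of the Bnip3 exonic bases, 22.3% are shared with the antisense gene Gm45507, which had 0 reads in both libraries. Whether counting used strand is not known, so this 0 cannot show that antisense transcripts were absent. It is likewise not known how reads on the shared bases were counted. Comparisons of the Bnip3 level with other genes carry this limit. The 6 other loci that match the same protein had 1 read in shCtrl and 2 in shSetdb1.

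Bnip3l (ENSMUSG00000022051, chromosome 14, 66985239 to 67008877) is the closest relative of Bnip3 and is known for clearing mitochondria from maturing red cells. It went from 9.75 FPKM (705 reads) to 14.6 FPKM (1056 reads), with a log2 ratio of 0.54 and reads at 1.45 times (1.32 to 1.60). This was below the 2-fold threshold, and 18.5% of genes had a higher ratio. A transcribed pseudogene, Bnip3l-ps on chromosome 12, matches the same protein and had 63 reads in shCtrl and 116 in shSetdb1. The order of the 2 relatives differed between the libraries. Bnip3 was at 0.602 times the FPKM of Bnip3l in shCtrl and at 5.07 times in shSetdb1.

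Fkbp8 (ENSMUSG00000019428, chromosome 8, 70527724 to 70535328) encodes a membrane-anchored member of the FK506-binding protein family that binds LC3A and BCL2. It was the most abundant outer membrane receptor in both libraries, at 92.9 FPKM (7879 reads) in shCtrl and 126 FPKM (10710 reads) in shSetdb1. Its log2 ratio was 0.44 and its read ratio 1.31 (1.28 to 1.35). The gene overlaps Kxd1, which had a log2 ratio of 0.19, over 4.95% of its exonic bases.

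Bcl2l13 (ENSMUSG00000009112, chromosome 6, 120836212 to 120892842) encodes a BCL2-like protein regarded as a mammalian counterpart of the yeast receptor Atg32. Its level was 11.4 FPKM (1949 reads) in shCtrl and 14.6 FPKM (2485 reads) in shSetdb1, with a log2 ratio of 0.33 and reads at 1.23 times (1.16 to 1.31). It shares 6.91% of its exonic bases with its neighbour Bid, which encodes a pro-apoptotic BCL2 family protein. Bid ran the other way, from 19.0 to 11.0 FPKM (log2 ratio -0.74).

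Fundc1 (ENSMUSG00000025040, chromosome X, 17556564 to 17572325) encodes a receptor controlled by phosphorylation and tied to mitophagy in low oxygen. It had the fewest reads of the detected genes, 139 in shCtrl (3.15 FPKM) and 185 in shSetdb1 (4.20 FPKM). On the log2 scale this was 0.32. The interval of the read ratio of 1.29 ran from 1.03 to 1.62. The intervals of its 2 levels, 2.65 to 3.72 and 3.61 to 4.85 FPKM, overlapped.

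Added together, the 5 outer membrane receptors came to 123 FPKM in shCtrl and 234 FPKM in shSetdb1, a fold of 1.90. Bnip3 accounted for 68.2 FPKM of the difference of 111 FPKM, and Fkbp8 for 33.4 FPKM. The Bnip3 share of the sum was 4.77% in shCtrl and 31.7% in shSetdb1. The Fkbp8 share was 75.4% and 54.0%. Without Bnip3, the other 4 summed to 117 and 160 FPKM, a fold of 1.36. FPKM is per length of the gene model, here all annotated exons of a gene, so comparisons between genes assume that these models fit the transcripts present.

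**Figure D1:**
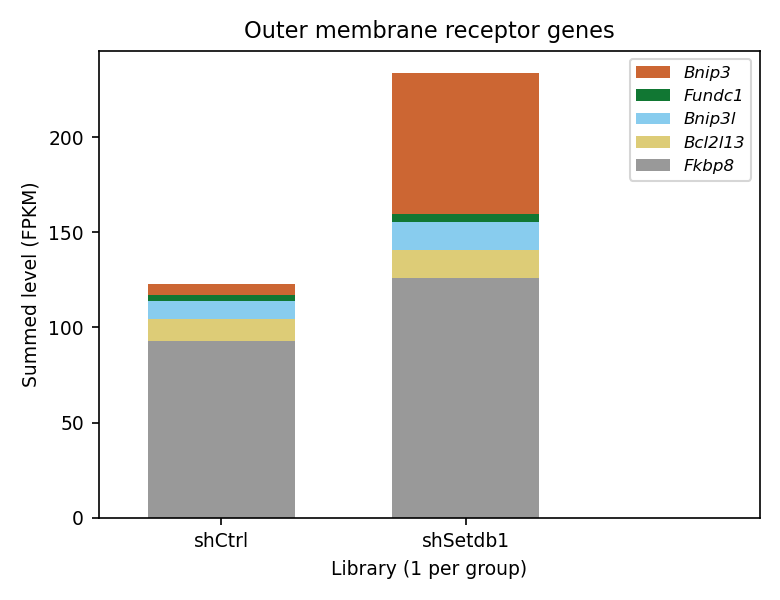
Stacked bars of the level (FPKM) of 5 outer membrane mitophagy receptor genes in the shCtrl and shSetdb1 libraries, 1 library each, with no error bars. The stack is 123 FPKM high in shCtrl and 234 FPKM in shSetdb1, with Bnip3 taking 4.77% and 31.7% of it.

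The inner membrane receptor and the kinase of the ubiquitin route differed by less than 2-fold. Phb2 (ENSMUSG00000004264, chromosome 6, 124712336 to 124716950) encodes prohibitin 2, an inner membrane scaffold that binds LC3 once the outer membrane has ruptured. It was the 1 gene of the 7 that was lower, at 98.4 FPKM (6852 reads) in shCtrl and 76.8 FPKM (5351 reads) in shSetdb1. On the log2 scale this was -0.35, and reads were at 0.755 times (0.729 to 0.783). Its partner in the prohibitin ring, Phb, chosen after its values were seen, went from 65.6 to 73.4 FPKM (log2 ratio 0.16). The antisense gene Gm15884 overlaps Phb2 and had 0 reads, with the limit given above for Gm45507. Phb2 shares 7.96% of its exonic bases with Gm15884 and Gm23547.

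Pink1 (ENSMUSG00000028756, chromosome 4, 138313409 to 138326307), the kinase that starts the ubiquitin route, went from 20.1 FPKM (1006 reads) to 25.7 FPKM (1285 reads). Its log2 ratio was 0.34 and its read ratio 1.24 (1.14 to 1.34). Pink1 shares 6.7% of its exonic bases with Gm27646 and Mir7019. Optn (ENSMUSG00000026672, chromosome 2, 5020642 to 5064051), the gene of the ubiquitin-binding adaptor optineurin, had 0 reads in either library. With 3 reads taken as the limit that a count of 0 allows, the level could be up to 0.0427 FPKM, and the two-sided Poisson interval used for the other levels reaches 0.0525 FPKM. It was therefore not detectable at this depth, and no ratio is given.

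**Figure D2:**
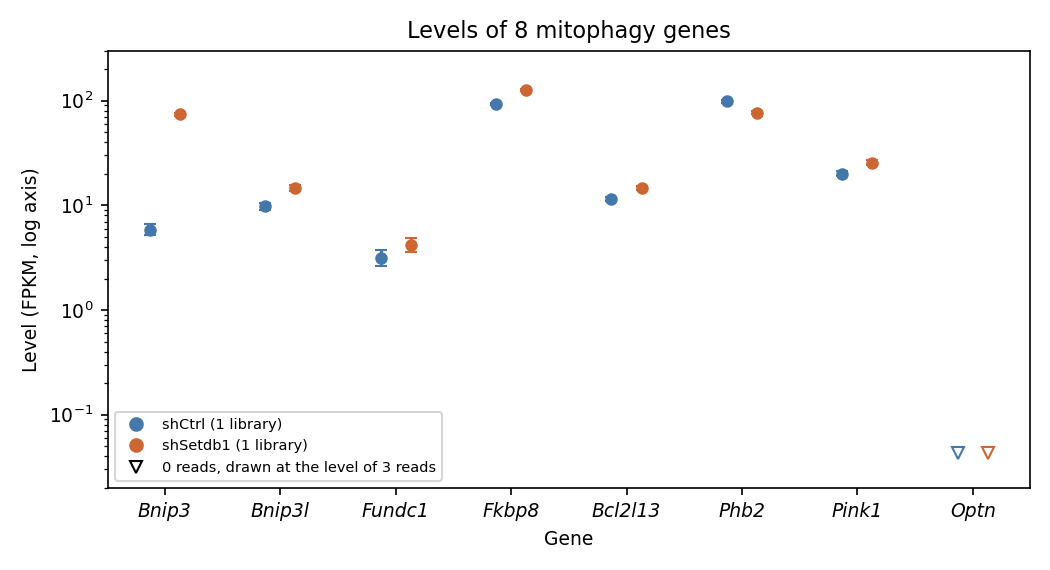
Level of each of the 8 genes in FPKM on a log axis, with shCtrl and shSetdb1 side by side and bars for the 95% counting interval (1 library each). Bnip3 moves from 5.87 to 74.0 FPKM, the other detected genes lie between 78.1% and 150% of their shCtrl level, and Optn, with 0 reads, is drawn at the level of 3 reads.

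By level, the order in shCtrl was Phb2, Fkbp8, Pink1, Bcl2l13, Bnip3l, Bnip3, Fundc1 and Optn. No 2 neighbours in that order had overlapping counting intervals. In shSetdb1 the order was Fkbp8, Phb2, Bnip3, Pink1, Bnip3l, Bcl2l13, Fundc1 and Optn. There the intervals of Phb2 (74.8 to 78.9 FPKM) and Bnip3 (71.5 to 76.7 FPKM) overlapped, as did those of Bnip3l (13.7 to 15.5 FPKM) and Bcl2l13 (14.0 to 15.2 FPKM). Bnip3 moved from the sixth place to the third.

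The counting interval of the read ratio lay above 1 for 6 genes and below 1 for 1, Phb2. Across all genes tested, 35.2% lay above 1 and 40.6% below it, together 75.8%. Such an interval covers counting error only, not the spread between cultures. PCR copies were not marked by molecular identifiers, so reads may not stand for separate molecules.

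The rest of the ubiquitin route was described from a list of 20 genes, of which 18 reached 1 FPKM. Of these, 6 were higher and 11 lower by FPKM. Tbk1, the kinase that phosphorylates optineurin, named after its values were seen, had 352 reads in each library and a log2 ratio of 0. Relative to each library's total, its read ratio was 0.967 (0.832 to 1.12). Counts of genes higher and lower follow FPKM and were not repeated under other scalings. Across all genes tested, 49.6% were higher, 50% lower and 11.7% at least 2-fold different. In this list none was at least 2-fold different in either direction, and the median log2 ratio was -0.10. Vdac1, an outer membrane channel, was highest at 0.71, with 171 FPKM in shCtrl and 280 FPKM in shSetdb1. Rhot2, a mitochondrial transport GTPase, followed at 0.52. The lowest were Tomm70a, an import receptor, at -0.50 and Oma1, a stress-activated protease of the inner membrane, at -0.46.

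Adaptors and ATG8 proteins made a list of 12, with 11 at 1 FPKM or more. Of these, 3 were higher, 8 lower and 0 at least 2-fold different, beside 49.6%, 50% and 11.7% of all genes tested. The list median log2 ratio was -0.22. Sqstm1, the gene of the adaptor p62, was the most abundant of the list and the lowest, from 793 to 467 FPKM (log2 ratio -0.76). Map1lc3b, which encodes LC3B, was next at -0.62, from 64.9 to 41.8 FPKM. The highest were Nbr1, another ubiquitin adaptor, at 0.39 and Gabarapl2, an ATG8 protein, at 0.29. Calcoco2, the gene of the adaptor NDP52, named after its values were seen, had 5 reads in shCtrl and 0 in shSetdb1. Optn and Calcoco2 each had at most 5 reads in a library, while Pink1 had 1006 and 1285.

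The next list held 24 other mitophagy and fission regulators. Of 21 members at 1 FPKM, 6 were higher and 15 lower, and the median log2 ratio was -0.19. At least 2-fold lower were 2 (9.52%) and 0 were 2-fold higher. Among all genes tested, 49.6% were higher and 50% lower, 4.85% were 2-fold lower and 11.7% were 2-fold different in either direction. Crls1, which encodes the enzyme that makes cardiolipin, the inner membrane lipid that LC3 can bind, was lowest, with 722 reads in shCtrl and 247 in shSetdb1 (log2 ratio -1.41). Huwe1, a ubiquitin ligase, went from 13.9 to 6.33 FPKM (log2 ratio -1.02). Src, a kinase that phosphorylates FUNDC1, was highest at 0.42, before Mief2, a fission factor, at 0.39.

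Pptc7 and Fbxl4, chosen after their values were seen, encode proteins known to limit the amount of BNIP3 and BNIP3L protein. Pptc7 had 521 reads in shCtrl and 225 in shSetdb1, a log2 ratio of -0.96, just short of the 2-fold threshold. Its read ratio was 0.418 (0.356 to 0.489). Fbxl4 had 112 and 66 reads, a log2 ratio of -0.42. At 1.57 FPKM in shCtrl and 0.928 FPKM in shSetdb1, Fbxl4 passed the filter only through shCtrl. Both genes were lower in shSetdb1, as were 15 of the 21 tested genes of their list and 50% of all genes tested. Protein was not measured, and a link to the Bnip3 difference was not tested.

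Genes of autophagosome formation were close to even. Of 25 listed, 23 reached 1 FPKM, 12 of them higher and 11 lower, with a median of 0.09 and 0 at 2-fold. Their ratios ran from -0.72 for Atg5 and -0.55 for Atg13 to 0.47 for Atg9a and 0.52 for Atg4c. Atg4c, at 0.956 FPKM in shCtrl and 1.80 FPKM in shSetdb1, passed the filter only through shSetdb1. Counting each gene once, the 4 lists of mitophagy and autophagy genes together held 73 genes at 1 FPKM. Of these, 27 were higher and 45 lower, and 2.74% were at least 2-fold different against 11.7% of all genes tested. Across all genes tested, 49.6% were higher and 50% lower.

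**Figure D3:**
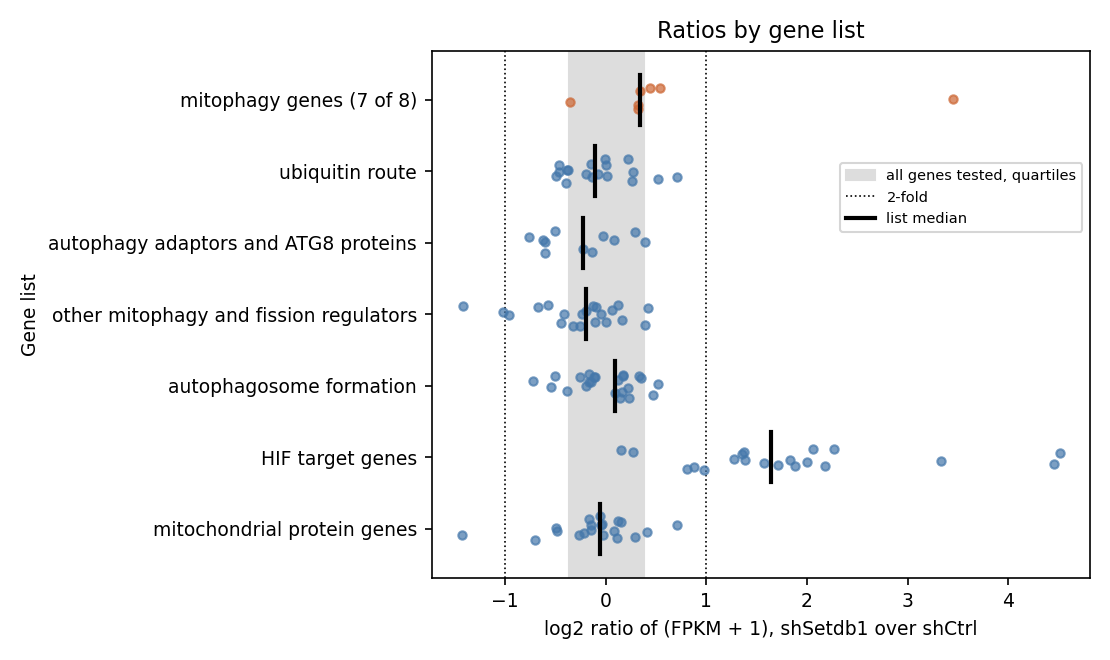
Each point is 1 gene's log2 ratio of (FPKM + 1), shSetdb1 over shCtrl, by gene list, with the list median as a black bar, the quartiles of all genes tested (-0.36 to 0.38) shaded and 2-fold dotted. Bnip3 lies at 3.45, apart from the other 6 mitophagy genes, and the HIF target list has a median of 1.64.

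A further list held 20 nuclear genes for outer membrane, import, matrix and respiratory proteins, all above 1 FPKM. Their mRNA does not measure the amount of mitochondria. Of these 7 were higher and 13 lower, beside 49.6% and 50% of all genes tested. The list median log2 ratio was -0.0531. The lowest was Hspd1, a matrix chaperone, from 194 to 71.2 FPKM (log2 ratio -1.43). It was the 1 gene of the list at 2-fold (5.0%), against 11.7% of all genes tested. Hspa9, another chaperone, was at -0.70. Vdac1 at 0.71 and Slc25a4, an ADP/ATP carrier, at 0.42 were highest.

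Bnip3 was then set beside 23 known HIF targets, a list chosen with earlier results of these data known. Of these, 20 reached 1 FPKM, all 20 were higher in shSetdb1 and 15 were at least 2-fold higher, with a median log2 ratio of 1.64. Across all genes tested, 49.6% were higher and 6.81% at least 2-fold higher, with a median of -0.0004. The 3 targets under the filter had few reads in shCtrl and shSetdb1: Egln3 0 and 2, Adm 1 and 7, and Pfkfb3 12 and 15. The Bnip3 ratio of 3.45 was above 18 of the 20 and below those of Car9, a carbonic anhydrase, at 4.51 and Ankrd37 at 4.45. In shCtrl, Car9 was at 0.695 FPKM (30 reads) and Ankrd37 at 0.416 FPKM (12 reads). Both passed the filter only through shSetdb1, so their ratios could not fall below 0, and both are among the 20 and the 15. P4ha2, a collagen prolyl hydroxylase, was closest to Bnip3 in this list at 3.33, from 491 to 6008 reads. Slc2a1, a glucose transporter, was at 2.27, Egln1, an oxygen sensor, at 2.06 and Pdk1, a kinase that holds back pyruvate oxidation, at 1.72. The other 9 genes past 2-fold, P4ha1, Ldha, Bhlhe40, Aldoa, Mxi1, Ero1l, Pgk1, Ddit4 and Pfkfb4, lay between 1.27 (Pfkfb4) and 2.18 (P4ha1). The lowest were Vegfa at 0.15 and Eno1 at 0.28. The Bnip3l ratio of 0.54 was below those of most genes of the list. Whether the level of HIF activity had a part in the Bnip3 difference was not tested.

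**Figure D4:**
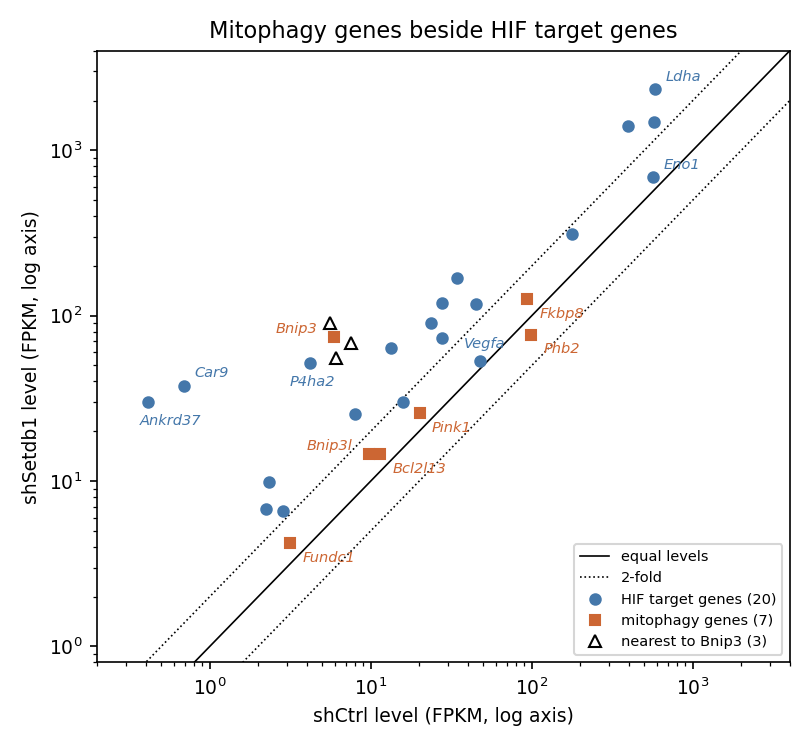
Level in shSetdb1 against level in shCtrl, both in FPKM on log axes, for 7 detected mitophagy genes (squares), 20 HIF target genes (circles) and the 3 genes nearest to Bnip3 (triangles), with lines for equal levels and for 2-fold in FPKM. Bnip3 lies with its nearest genes above the 2-fold line, and the other 6 mitophagy genes lie within it.

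The pattern most like that of Bnip3 was looked for among protein-coding genes by the distance in log2(FPKM + 1) over the 2 libraries. The 3 nearest were Esm1, at a distance of 0.28, Slc16a3 at 0.33 and Upp1 at 0.40. Esm1, which encodes a secreted proteoglycan, went from 5.60 to 89.8 FPKM. Slc16a3, a lactate exporter, went from 7.50 to 68.5 FPKM, and Upp1, uridine phosphorylase, from 6.07 to 55.8 FPKM. With 2 libraries, this likeness means only that both levels were close.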

How the data were processed

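One library per group was analysed, with groups taken from the genotype in the labels and columns matched by library name. The authors deposited FPKM values per gene, with gene model length and position, per the file headers. CASAVA, HISAT2, featureCounts 1.5.0-p3 and GRCm38 are named in the submitters' processing notes, and whether counting used strand is not given in the sources used here. All 8 genes had the same position in GENCODE M21. FPKM times length gave whole reads (tolerance 0.001) for 100% of values above 0, and a single depth of 18731117 reads underlies both columns, so FPKM ratios carry the 1.03 ratio of the totals while read ratios do not.

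Ratios are log2 of (FPKM + 1), for genes that reached 1 FPKM in either library. Intervals are 95% exact intervals, Poisson for levels and binomial (Clopper-Pearson) for read ratios. Genes named, besides Setdb1 and the 8, were the 2 highest and 2 lowest of each of 6 lists, those at least 2-fold different and the 3 nearest to Bnip3. Cell type markers are named from their fixed lists. Overlapping genes, pseudogenes, the HIF targets under the filter and the genes said to be named or chosen after their values were seen fall outside this rule. The genes and lists were chosen with earlier results of these data known. Alternatives were another pseudocount, filters, scalings, folds, CPM and means, and, after seeing the data, reads added over loci with the same protein match. 1 result is not reported here. The calculations were tested on simulated data. The software was scipy 1.17.1, pandas 2.3.3, numpy 2.4.6 and matplotlib 3.10.9 under Python 3.11.15.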

Additional observations from a re-analysis of the deposited data

How the results depend on the processing

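Bnip3 was the 1 gene of the 8 at least 2-fold higher, and 0 were 2-fold lower, under all alternatives run for these counts, including thresholds of 1.5-fold and 4-fold. The Bnip3 log2 ratio stayed between 3.40 and 3.63. Of 37 alternative values for the 7 detected genes, 34 stayed within counting error, 3 moved (all of Fkbp8, to 0.39) and 0 reversed. With means in place of medians, the 7 genes were at 0.72, which carries Bnip3, HIF targets at 1.81, nuclear genes of mitochondrial proteins at -0.115 and autophagosome genes at -0.0122, a change of sign. Without a filter, autophagosome genes were at -0.0316, also reversed, and HIF targets at 1.38, since genes with few reads entered. HIF targets were at 1.75 with a pseudocount of 0.1. Adaptors and ATG8 proteins were at -0.33 on log2(CPM + 1), and the cause of that shift was not tested. With a filter at 5 FPKM they were at -0.14, since genes under that level in both libraries left the list. Of 200 alternative values for 40 other named genes, 36 moved and 0 reversed. The pseudocount of 0.1 gave 10.6% of all genes higher and 8.15% lower. No paired analysis was possible because there was 1 library in a group, and none could be left out. Depth limits Optn and Calcoco2, which had at most 5 reads.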

Other observations

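Genes next to the mitophagy receptors in function, chosen after their values were seen, are given as values only. Hif1a, the gene of an oxygen-regulated transcription factor subunit, had 673 reads in shCtrl and 418 in shSetdb1 (log2 ratio -0.57), and Epas1, the gene of HIF2A, had 0 reads in both. Fundc2, the relative of Fundc1, was at 35.9 FPKM in shCtrl and 38.1 FPKM in shSetdb1 (log2 ratio 0.08). In the 250 bases before the start, ACGTG was in 53.6% of 28 promoters of 17 HIF target genes tested and in 21.6% of 612 promoters of genes at least 2-fold higher, beside 22.5% for all genes tested. The other form of the motif core, GCGTG, was in 50%, 41.7% and 46.6% of the same promoters. Several promoters can belong to 1 gene.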
